A study of Homo sapiens with 17 samples.

Results

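The promoters described here had listed contacts in naive or in primed human pluripotent stem cells (PSCs) but not in both. Weaker contacts below the listing threshold cannot be seen, so a state with none listed is not shown to lack contacts. A baited promoter fragment was taken as naive-only when promoter capture Hi-C (PCHi-C) listed 3 or more interactions for it in naive PSCs and none in primed PSCs, and as primed-only in the opposite case, so the members were chosen by their numbers of listed interactions. Of the 15982 baited HindIII fragments with at least 1 listed interaction, 650 were naive-only and 569 were primed-only, which makes 1219 in all. A further 6328 fragments had 3 or more interactions in each state and serve as the comparison.

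The study asked how the contacts of promoters and the marks on their enhancers differ between these states of pluripotency. Naive and primed PSCs came from 1 isogenic line, H9 NK2, an established human embryonic stem cell line. Naive PSCs grew on Matrigel in t2iL+PKCi, which holds the MEK inhibitor PD0325901, the GSK3 inhibitor CHIR99021, LIF and the PKC inhibitor Go6983. Primed PSCs grew in TeSR-E8 on Vitronectin, and both were kept in low oxygen. PCHi-C was made from 2 libraries per state, which the authors combined into 1 list per state, Hi-C came from 1 library per state, and H3K4me1 CUT&RUN had 2 libraries of naive and 3 of primed PSCs. With a single combined list per state, the contacts have no replicate check, and all values on contacts are descriptions of these lists.

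In PCHi-C, RNA baits pull down promoter fragments from a Hi-C library, so that each listed interaction joins a promoter to another HindIII fragment, its partner. The CHiCAGO score of an interaction grows as its reads exceed the background modelled for that distance, and only interactions with a score of at least 5 were listed. The authors were concerned that a strict cutoff of 5 would call differences between states too readily. For their enhancer comparisons they accepted a lower score in the second state. H3K4me1 is a histone mark found at enhancers and at the flanks of promoters. Naive PSCs resemble the epiblast before implantation and primed PSCs the epiblast after it, and in primed cells many promoters of developmental regulators are held by Polycomb complexes, which also draw distant sites together.

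The promoter sequences of 6 members on which the H3K4me1 and contact results turn are shown first. *DPPA5*, a KH-domain protein of naive cells, and *SLC12A3*, the thiazide-sensitive sodium chloride cotransporter, were naive-only. *DUSP6*, a phosphatase of ERK, *HAND2* and *TBX5*, transcription factors of heart and limb, and *CER1*, a secreted antagonist of Nodal and BMP, were primed-only. Each window runs from 250 bases before to 50 after the RefSeq start (GRCh38.p14) and is written on the strand of the gene. Capitals mark the motifs found among 10 that were searched on both strands, so a motif can appear as its reverse complement. They were the GC box GGGCGG, the AP-2 motif GCCNNNGGC, which can share letters with the GC box, the CCAAT box, the TATA box TATAAA, the GATA motif GATAAG, the E-box CACGTG, the octamer ATGCAAAT, the SOX motif AACAAAG, the NRF1 motif and the YY1 motif AAGATGGCG.
DPPA5 chr6:73354227-73354526 (minus strand): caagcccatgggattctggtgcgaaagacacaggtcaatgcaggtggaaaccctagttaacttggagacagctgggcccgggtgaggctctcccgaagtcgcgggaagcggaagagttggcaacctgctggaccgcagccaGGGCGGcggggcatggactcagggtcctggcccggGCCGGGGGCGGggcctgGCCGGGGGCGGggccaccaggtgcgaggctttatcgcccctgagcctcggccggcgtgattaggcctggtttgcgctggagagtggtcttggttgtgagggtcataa
SLC12A3 chr16:56864957-56865256 (plus strand): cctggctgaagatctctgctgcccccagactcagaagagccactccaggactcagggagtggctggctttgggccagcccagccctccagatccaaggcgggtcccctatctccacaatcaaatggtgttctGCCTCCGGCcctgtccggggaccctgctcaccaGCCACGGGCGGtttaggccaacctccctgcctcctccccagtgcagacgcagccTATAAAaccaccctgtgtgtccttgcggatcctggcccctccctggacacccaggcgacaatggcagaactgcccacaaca
DUSP6 chr12:89352452-89352751 (minus strand): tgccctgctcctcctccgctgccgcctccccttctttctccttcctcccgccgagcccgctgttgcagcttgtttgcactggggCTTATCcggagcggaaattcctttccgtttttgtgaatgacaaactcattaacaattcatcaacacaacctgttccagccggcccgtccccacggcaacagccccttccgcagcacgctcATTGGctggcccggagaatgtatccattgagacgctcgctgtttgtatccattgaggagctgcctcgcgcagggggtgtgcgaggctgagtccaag
HAND2 chr4:173530180-173530479 (minus strand): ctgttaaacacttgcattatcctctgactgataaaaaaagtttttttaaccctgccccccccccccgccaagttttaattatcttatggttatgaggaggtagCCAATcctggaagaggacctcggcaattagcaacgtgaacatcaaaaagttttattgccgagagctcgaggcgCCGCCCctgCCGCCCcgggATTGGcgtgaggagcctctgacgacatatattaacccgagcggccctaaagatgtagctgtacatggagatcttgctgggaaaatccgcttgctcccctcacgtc
TBX5 chr12:114407963-114408262 (minus strand): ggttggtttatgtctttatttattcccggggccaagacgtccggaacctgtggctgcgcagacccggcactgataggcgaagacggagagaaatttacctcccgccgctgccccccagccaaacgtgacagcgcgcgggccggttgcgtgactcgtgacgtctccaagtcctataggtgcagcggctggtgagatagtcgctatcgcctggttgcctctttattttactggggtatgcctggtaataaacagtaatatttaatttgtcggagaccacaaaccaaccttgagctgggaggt
CER1 chr9:14722684-14722983 (minus strand): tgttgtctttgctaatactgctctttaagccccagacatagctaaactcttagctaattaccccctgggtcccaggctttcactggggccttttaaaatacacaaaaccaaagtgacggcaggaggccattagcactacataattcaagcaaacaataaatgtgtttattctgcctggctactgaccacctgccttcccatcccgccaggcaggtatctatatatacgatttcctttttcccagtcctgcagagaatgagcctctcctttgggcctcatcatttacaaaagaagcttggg
The *DPPA5* window held 3 GC boxes and 2 AP-2 motifs, and the *SLC12A3* window held 1 TATA box, 1 GC box and 2 AP-2 motifs. The *DUSP6* window held 1 CCAAT box and 1 GATA motif, the *HAND2* window held 2 CCAAT boxes and 2 GC boxes, and no motif of the 10 was found in the *TBX5* and *CER1* windows. Of the 34961 RefSeq promoter windows of the same length, 45.0% held the GC box, 23.2% the AP-2 motif, 34.6% the CCAAT box, 11.5% the TATA box, 6.35% the GATA motif and 7.27% the E-box. The octamer was in 1.77% of them, the SOX motif in 5.19%, the NRF1 motif in 1.24% and the YY1 motif in 1.76%.

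A window of 300 bases is shown from a partner of *DUSP6*, because the H3K4me1 of this promoter differed little and that of its partners differed much. It was taken from the partner fragment around its 500 bp tile with the largest difference and is written on the plus strand of GRCh38. The window is intergenic, 270 kb from the nearest protein-coding start, which is that of *DUSP6* itself, and held 1 AP-2 motif, in capitals.
DUSP6 partner chr12:89082101-89082400: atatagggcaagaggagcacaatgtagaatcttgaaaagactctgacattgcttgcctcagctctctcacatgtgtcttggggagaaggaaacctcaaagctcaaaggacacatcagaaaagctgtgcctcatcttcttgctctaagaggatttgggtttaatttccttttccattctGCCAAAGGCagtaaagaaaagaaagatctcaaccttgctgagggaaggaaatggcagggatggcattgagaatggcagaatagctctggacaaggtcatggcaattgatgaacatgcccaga
In this tile the H3K4me1 level was -2.86 and -2.75 log2 RPM (reads scaled to library size) in the naive libraries and 2.18, 1.77 and 2.09 in the primed libraries. All primed libraries lay above both naive libraries. In naive replicate 2 an empty tile stands at -2.91, so the value of -2.75 lies near the lowest possible. The tile was chosen for its difference, so no test is given for it.

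Naive-only promoters carried 3217 interactions and primed-only promoters 3675. The median was 4 interactions per promoter in each set, against 8 in the naive and 9 in the primed list for promoters with 3 or more in both. Large numbers were more common among primed-only promoters, since 99 of them (17.4%) had 10 or more interactions and the largest had 43, against 46 (7.08%) and 23 among naive-only promoters. The reach of the contacts separated the sets further. The median distance between fragment centres was 175 kb for naive-only and 482 kb for primed-only promoters, while the comparison promoters stood at 249.8 kb in the naive and 298 kb in the primed list. Over 1 Mb lay 22 interactions (0.684%) of the naive-only and 772 (21.1%) of the primed-only promoters, and 160 primed-only promoters (28.1%) had at least 1 contact of this length. The shares over 1 Mb for the comparison promoters were 1.91% in the naive and 5.31% in the primed list.

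**Figure D1:**
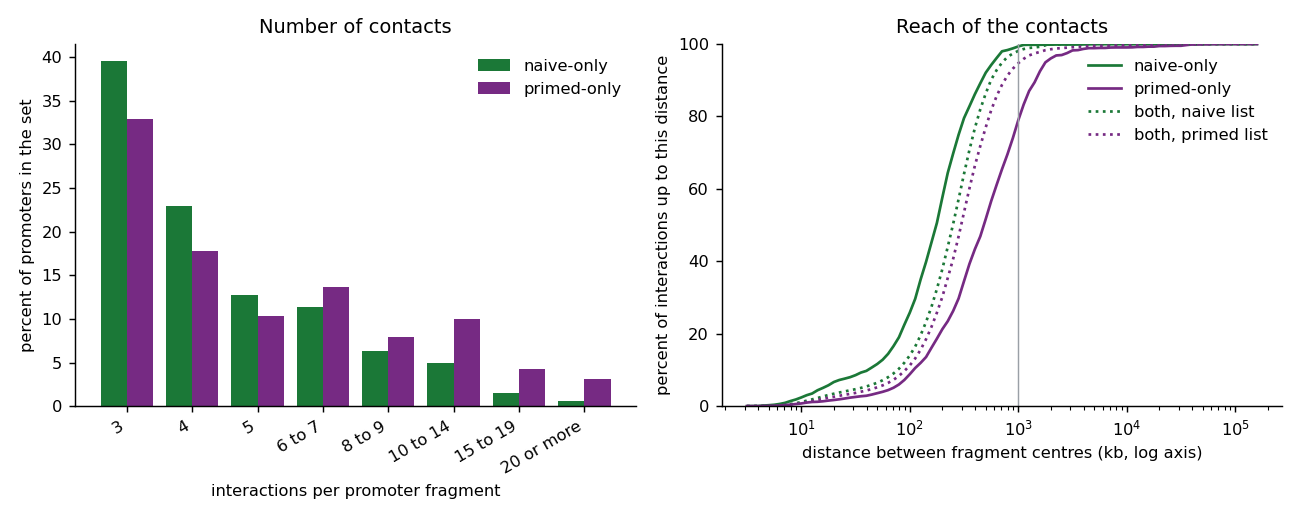
The left panel plots the percent of naive-only and primed-only promoter fragments by number of listed interactions, and the right panel plots the percent of interactions up to each distance in kb on a log axis, with dotted lines for promoters with 3 or more interactions in both states and a grey line at 1 Mb. The primed-only curve lies to the right of the others, with 21.1% of interactions over 1 Mb, and the naive-only curve lies to the left, with 0.684%.

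Scores were lower than those of the comparison promoters. The median score was 6.01 for naive-only and 6.19 for primed-only interactions, against 6.82 and 6.90 in the naive and primed lists of the comparison promoters, and 5.69% and 10.2% of the interactions scored 10 or more, against 18.9% and 20.1%. The median combined read number was 23 per naive-only and 15 per primed-only interaction. Just inside the rule lay 257 naive-only promoters with exactly 3 interactions (median score 5.89) and just outside it 511 with exactly 2 (5.82). The same numbers for primed-only promoters were 187 (5.77) and 365 (5.75). Of the 8591 promoters with 3 or more interactions in naive PSCs, 779 had a single interaction in primed PSCs, beside the 650 with none, and of 8386 such promoters in primed PSCs, 689 had a single interaction in naive PSCs, beside the 569 with none. Another promoter was the partner in 767 of the 3217 naive-only and 553 of the 3675 primed-only interactions. A protein-coding gene started on 475 naive-only (73.1%) and 414 primed-only fragments (72.8%), and no GENCODE promoter lay on 49 fragments of each set, which are named here by their position.

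Developmental regulators were mostly on the primed-only side. Of 285 baited fragments with a homeobox or other developmental transcription factor gene, 31 (10.9%) were primed-only and 1 (0.351%) was naive-only, *NKX1-1*, whereas 3.56% and 4.07% of all baited fragments were primed-only and naive-only. Of the 285 fragments, 159 had 3 or more interactions in both states, as did 6328 of all 15982 baited fragments. The primed-only members were led by *HAND2* with 34 interactions, *PITX1* with 26, *PTF1A* with 25, *HOXB2* with 24 and *NR2F2* with 19. They had a median of 11 interactions and a median distance of 520 kb, and 20 of the 31 reached over 1 Mb. Ligands and receptors of the FGF, WNT, BMP, TGF-beta, Hedgehog and Notch pathways counted 8 primed-only (7.77%) and 2 naive-only (1.94%) of 103 fragments. The primed-only ones were *ACVR2A* with 15 interactions, *BMP8A* and *GREM1* with 9 each, *FGF23*, *FGF14*, *DLL1*, *FZD10* and *INHBA*, and the naive-only ones were *JAG2* and *NOTCH1*.

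Other lists had more naive-only than primed-only fragments. Ribosomal protein genes counted 8 naive-only (11.4%) and 1 primed-only fragment (1.43%) of 70, cell adhesion genes 12 (8.16%) and 4 (2.72%) of 147, and solute carrier genes 14 (4.79%) and 6 (2.05%) of 292. Histone genes counted 3 naive-only and 0 primed-only of 53, among them *H1-8*, the oocyte linker histone, and *H3-3A*. Of 16 fragments with a gene of naive pluripotency, *DPPA5* (on 1 fragment with *KHDC3L*) and *IL6ST*, the signalling receptor of the LIF family, were naive-only and none was primed-only. Of 18 fragments with a gene of primed pluripotency, *DUSP6* and *OTX2* were primed-only and none was naive-only. Similar numbers in both sets were found for zinc finger (ZNF) genes, with 14 naive-only (4.64%) and 15 primed-only (4.97%) of 302, and ion channel and receptor genes, with 6 each of 180. No protocadherin fragment of 43 was in either set, and 38 of them had 3 or more interactions in both states. Mitochondrial ribosome and respiratory chain genes counted 7 and 3 of 147, proteasome, splicing and translation factor genes 7 and 3 of 151, cytokine system genes 4 and 5 of 125, olfactory receptor genes 2 and 4 of 197, keratin genes 1 and 2 of 108 and microRNA genes 28 and 22 of 570. The lists were chosen with results of these data known, and these shares are counts without a test.

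**Figure D2:**
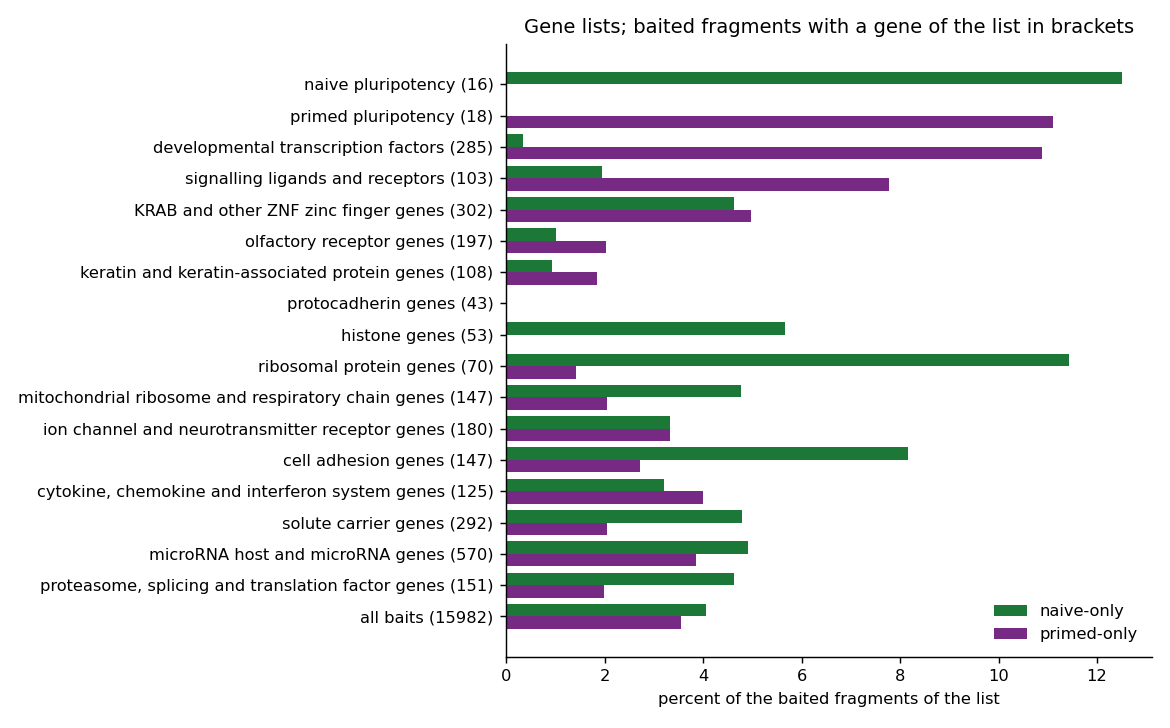
Horizontal bars plot, for each gene list with its number of baited fragments in brackets, the percent of those fragments that were naive-only or primed-only, with all baits in the bottom row. Developmental transcription factors stand at 10.9% primed-only and 0.351% naive-only, and ribosomal protein genes at 1.43% and 11.4%.

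H3K4me1 was not used to choose the promoters, so its difference between states could be tested. The level of a fragment is the mean log2 RPM over its 500 bp tiles, and the difference is primed minus naive from limma with Benjamini-Hochberg adjustment over 160192 fragments that passed a filter on low values. Over all of these, 25.1% were higher in naive and 26.3% were higher in primed PSCs at an adjusted p under 0.05, and the median difference was 0.01. A fragment marked in 1 state passes this filter through that state alone, which favours calls among tested fragments, and the counts below cover only fragments that passed. In such bulk libraries, more marked cells and more mark per cell cannot be told apart. The sums of reads over tiles ranged from 9500786 to 37508165 per library, and the correlation over fragments was 0.918 between the naive libraries, 0.818 to 0.934 among the primed libraries and 0.191 to 0.256 between states. An empty tile stood at -4.60 and -2.91 log2 RPM in the naive libraries and at -3.30, -3.13 and -4.89 in the primed libraries. Where a level lies near these values, the size and rank of a difference depend in part on library depth.

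At naive-only promoters the mark leaned to naive PSCs. Of the 650 fragments 449 passed the filter, of which 171 (38.1%) were higher in naive and 25 (5.57%) higher in primed, with a median difference of -0.65. Every naive library lay above every primed library at 251 of the 449 fragments and below at 48. Over all 160192 tested fragments, 34.6% lay above and 34.5% below in this way. Over the 4435 comparison promoters that passed, 22.9% were higher in naive and 9.63% in primed, with a median of -0.25. Over all 11032 baits that passed, members among them, 24.8% were higher in naive and 9.85% in primed, with a median of -0.29. At primed-only promoters no such lean was seen. Of 569 fragments 368 passed, of which 63 (17.1%) were higher in naive and 67 (18.2%) higher in primed, with a median of 0.03. Beside all tested baits, a larger share was higher in primed and a smaller share higher in naive. At these 368 fragments the naive libraries lay above the primed ones at 103 and below them at 116. Each is a smaller share than over all tested fragments. The smaller counts moved with single libraries. Without naive replicate 1 the 25 became 9 and the 67 became 24, and the 63 became 37 without primed replicate 3 and 39 without naive replicate 2.

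The partners showed larger shifts, in opposite directions. Of 2301 naive-only partners that were not baited, 886 passed the filter, and 428 of these (48.3%) were higher in naive and 83 (9.37%) in primed, with a median of -0.89. Of 2880 unbaited partners of primed-only promoters, 793 passed, and 134 (16.9%) were higher in naive and 279 (35.2%) in primed, with a median of 0.46. The unbaited partners of the comparison promoters stood between them, at 30.5% and 17.8% in the naive list and 26.7% and 22.6% in the primed list. Partners that were themselves baited promoters, without the members of the set, moved less, with 26.9% higher in naive and 4.09% in primed for 464 tested naive-only partners and 19.7% and 12.2% for 319 tested primed-only partners. Over baited and unbaited partners together, 553 of 1350 were higher in naive and 102 in primed for naive-only promoters, and 197 of 1112 were higher in naive and 318 in primed for primed-only promoters. Without naive replicate 1 the 102 became 56 and the 318 became 198.

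**Figure D3:**
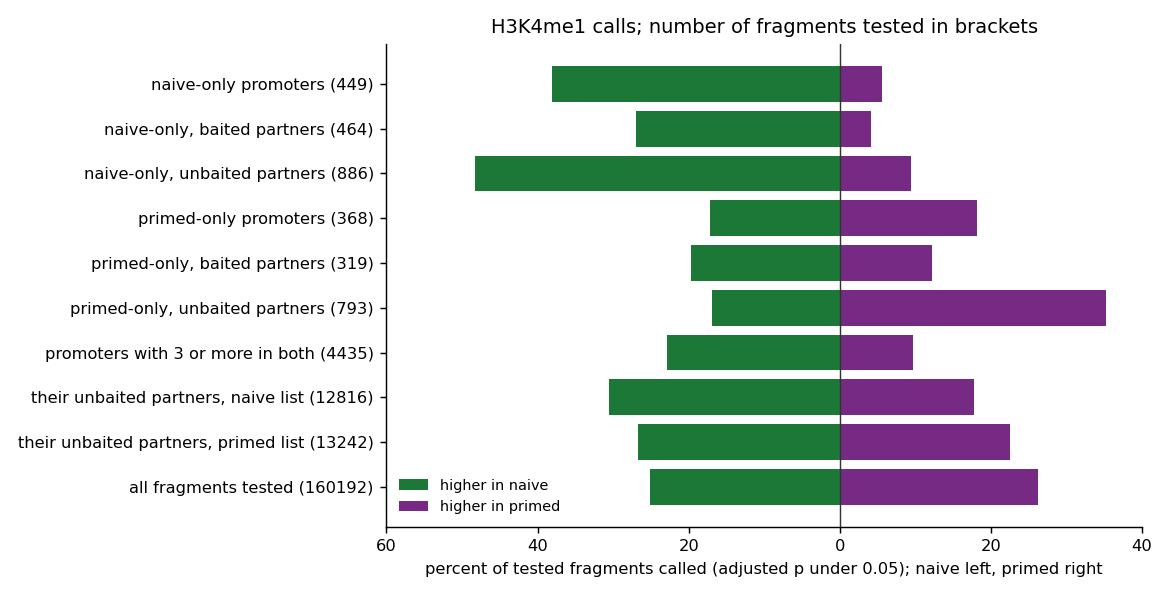
Horizontal bars plot the percent of tested fragments with higher H3K4me1 in naive (to the left) or in primed PSCs (to the right) at a limma adjusted p under 0.05, for promoters and partners of each set, the comparison promoters and all fragments tested, with the number tested in brackets. Unbaited partners of naive-only promoters reach 48.3% on the naive side and unbaited partners of primed-only promoters 35.2% on the primed side.

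The share of partners higher in naive varied with the reach of naive-only contacts. Of 310 tested unbaited partners up to 100 kb away, 201 (64.8%) were higher in naive and 11 (3.55%) in primed, with a median of -1.38, and of 579 between 100 kb and 1 Mb, 229 (39.6%) were higher in naive and 70 (12.1%) in primed, with a median of -0.60. Over 1 Mb 6 partners were tested, of which 4 were higher in naive and 2 in primed. For primed-only promoters the share higher in primed was 45.0% of 100 up to 100 kb, 35.0% of 537 to 1 Mb and 32.6% of 175 over 1 Mb. The comparison promoters had 28.2% of 785 tested partners over 1 Mb higher in primed. By number of contacts, the share of naive-only promoters higher in naive was 33.1% with exactly 3 interactions, 41.2% with 4 to 9 and 42.4% with 10 or more. The share of primed-only promoters higher in primed was 14.9%, 17.2% and 26.9% in these classes, the last from 67 tested fragments.

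The partners were also read by the direction of the promoter. Over all tested fragments 25.1% were higher in naive and 26.3% in primed. The chance of at least 1 called partner rises with the number of partners tested. The comparison promoters were not split in this way, so whether such agreement is particular to the members was not tested. Over all naive-only members 308 had at least 1 partner higher in naive and 82 at least 1 higher in primed, with a median over partner medians of -0.61, and over all primed-only members these numbers were 145, 175 and 0.12. The 158 naive-only promoters that were higher in naive and had a tested partner had a median over partner medians of -1.05, and 123 of them had at least 1 partner higher in naive and 9 at least 1 higher in primed. The 20 that were higher in primed had a median of 0.19, and 6 had a partner higher in naive and 8 a partner higher in primed. The 52 primed-only promoters that were higher in primed had a median of 0.84, and 32 had a partner higher in primed and 8 a partner higher in naive. Over 50 primed-only promoters that were higher in naive the median was -0.64, and 29 had a partner higher in naive and 6 a partner higher in primed.

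*DPPA5* was naive-only. Its fragment, chr6:73353243-73366321, also carries *KHDC3L*, a maternal-effect gene, and made 5 contacts in naive PSCs. H3K4me1 there was 0.45 and 0.35 log2 RPM in the naive libraries and -2.65, -1.91 and -2.57 in the primed libraries. The naive libraries lay well above the primed ones, with a difference of -2.78 (SE 0.35, limma with Benjamini-Hochberg adjustment, adjusted p = 4.77e-05). All 5 partners passed the filter and all 5 were higher in naive, with differences of -1.02 at 11.6 kb, -2.26 at 19.1 kb, -3.00 at 36.9 kb, -3.99 at 244 kb and -3.48 at 246 kb. Most had low primed levels, such as -3.30, -2.48 and -3.07 at 244 kb. The naive libraries alone can carry such partners past the filter, which favours this direction. The partner at -2.26 is the promoter of *OOEP*, another gene of the maternal complex to which *KHDC3L* belongs. The tile with the largest difference in the partner at 244 kb lies within *SLC17A5*, outside its exons.

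*IL6ST*, on chr5:55989624-55997676, had 6 contacts. Its level was -0.05 and -0.34 in naive and -1.57, -1.55 and -1.42 in primed, without overlap, and the difference was -1.32 (SE 0.34, limma with Benjamini-Hochberg adjustment, adjusted p = 0.00612, and 0.0505 without naive replicate 1). All 6 partners were higher in naive, with a median of -2.97, and here too the filter favours partners marked in naive alone. The fragment of *RRAD*, a small GTPase of muscle, also holds *CDH16* and *CES2* and had 4 contacts. The naive values were 0.19 and 0.28 and the primed values -2.53, -1.61 and -2.06, with a difference of -2.30 (SE 0.37, adjusted p = 0.000223). In contrast to *DPPA5*, none of its 3 tested partners, promoters of *HSF4*, *TRADD*, *NOL3* and *B3GNT9*, passed the test, and their median was 0.19. *SLC12A3* had among the largest promoter differences of the set. It stood at 0.96 and 0.89 in naive and at -2.86, -1.98 and -2.98 in primed, a difference of -3.53 (SE 0.38, adjusted p = 2.22e-05). Its 5 partners were the promoters of *HERPUD1*, *NUP93*, *BBS2* with *MT3*, *CETP* and *PSME3IP1* with *RSPRY1*, and 3 of them were higher in naive.

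**Figure D4:**
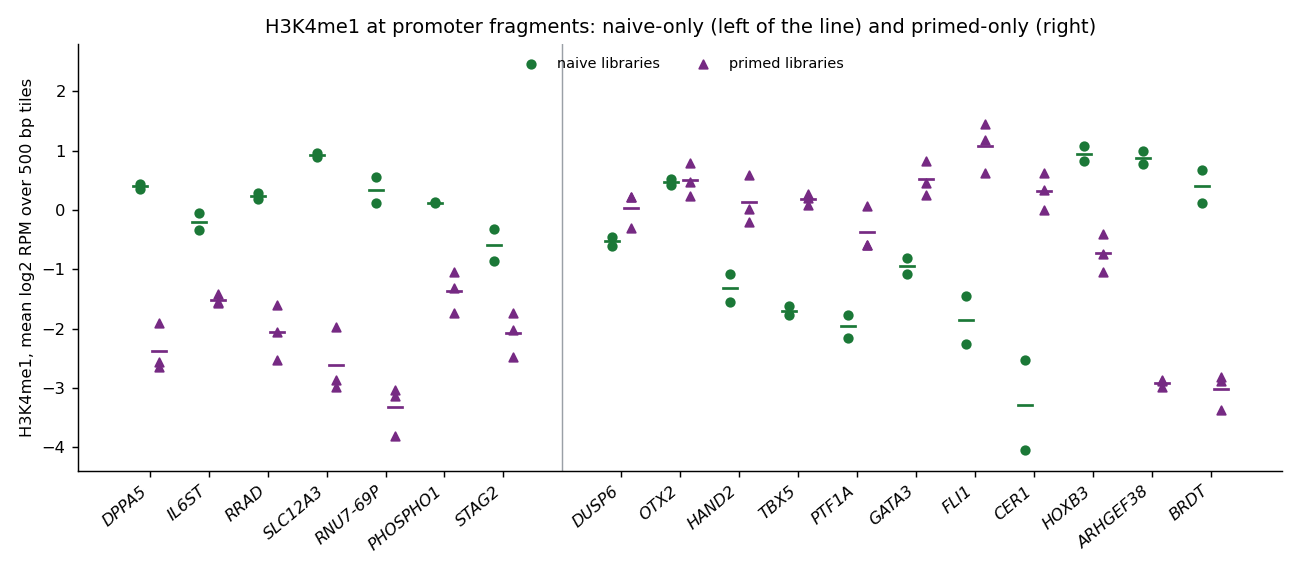
H3K4me1 at the promoter fragments of 7 naive-only members (left of the grey line) and 11 primed-only members (right) is plotted as mean log2 RPM over 500 bp tiles, with a point for each of 2 naive (circles) and 3 primed libraries (triangles) and a bar at the mean of each state. The members shown were picked and do not stand for their sets. Of 449 tested naive-only promoters, 253 were not called and 25 were higher in primed. Naive libraries lie above primed ones at the 7 naive-only members shown. The primed-only members shown include promoters higher in primed (such as CER1), higher in naive (such as ARHGEF38) and with overlapping libraries (OTX2).

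Some naive-only promoters lay beside each other. With a gap of at most 500 kb they formed 458 groups, and 312 of them (48.0%) had another member nearby, against 206 primed-only promoters (36.2%) in 447 groups. The primed-only set is smaller, and the share for an equal number of other baits was not computed. Whether members group more than other baits was therefore not tested. Here and below, the baits of a region are those with at least 1 listed interaction, and a region runs from its first to its last member. On chromosome X, all 5 such baits of chrX:123732180-124201282 were naive-only, with 51 interactions in naive and 0 in primed. This region holds *THOC2*, of the mRNA export complex, *RNU7-69P*, a U7 RNA pseudogene, *XIAP-AS1* and *STAG2*, a subunit of cohesin. The fragment of *RNU7-69P*, 37.6 kb from the start of *THOC2*, had 20 contacts. Its level was 0.12 and 0.55 in naive and -3.04, -3.13 and -3.81 in primed, where -3.13 is the level of an empty tile in its library. The difference was -3.66 (SE 0.34, limma with Benjamini-Hochberg adjustment, adjusted p = 1.42e-05), and 10 of 10 tested partners were higher in naive. *STAG2* stood at -0.85 and -0.33 in naive and -2.02, -2.48 and -1.74 in primed, a difference of -1.49 (SE 0.34, adjusted p = 0.00274), and 5 of 5 tested partners were higher in naive. *THOC2* had a difference of -2.91, and 6 of its 6 partners were higher in naive. In these partner counts, fragments marked in naive alone pass the filter through the naive libraries, which favours this direction.

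On chromosome 2, all 5 baits of chr2:32162583-32533035 with a listed interaction were naive-only, with 44 interactions in naive and 0 in primed. They carry *SLC30A6*, a zinc transporter, *NLRC4*, an inflammasome sensor, *YIPF4* and 2 fragments of *BIRC6*, an inhibitor of apoptosis. The *BIRC6* fragment at chr2:32512498-32533035 had 23 contacts, the most of any naive-only member, and did not pass the H3K4me1 filter. Its 3 tested partners were all higher in naive, a direction that the filter favours for partners marked in naive alone. *NLRC4* stood at 0.37 and 0.57 in naive and -3.11, -2.43 and -3.51 in primed, a difference of -3.49 (SE 0.35, limma with Benjamini-Hochberg adjustment, adjusted p = 1.89e-05). The largest group held 8 of the 16 baits of chr15:41508668-42550550, from *LTK* to *LRRC57*, where 87 interactions were listed in naive and 8 in primed. *ZNF106* in this group had 19 contacts and did not pass the filter.

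Naive-only promoters with many or strong contacts did not always carry a difference in the mark. *GABRA3*, a GABA receptor subunit, had 2 naive-only fragments with 21 and 18 contacts at median distances of 660 and 606 kb. Neither passed the H3K4me1 filter, and the first stood at -2.56 and -2.45 in naive and 0.07, -1.40 and -1.09 in primed, so the primed libraries lay above the naive ones. *HEXA*, a lysosomal hexosaminidase, had 18 contacts and a difference of -0.74 (SE 0.32, limma with Benjamini-Hochberg adjustment, adjusted p = 0.0639). *ENSG00000277911*, a gene within *AATF*, had 17 contacts and a difference of 0.80 (SE 0.49, adjusted p = 0.190), and 5 of its 9 tested partners were higher in primed. *PHOSPHO1*, a phosphatase of bone mineralisation, had 16 contacts, among them one with a score of 21.1. It stood at 0.12 and 0.13 in naive and -1.31, -1.05 and -1.74 in primed, a difference of -1.49 (SE 0.38, adjusted p = 0.00485), and 7 of 11 tested partners were higher in naive. Also among the promoters with most contacts were *UBE2H-DT* with 17 and a fragment within *LTBP2*, chr14:74497173-74499152, with 20, and neither passed the filter.

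The highest naive-only score was 31.9, at the fragment chr2:88010059-88012051, which lies outside protein-coding genes 52.2 kb from the start of *KRCC1*. It stood at -0.39 and -0.70 in naive and -3.22, -2.37 and -2.24 in primed, a difference of -2.07 (SE 0.35, limma with Benjamini-Hochberg adjustment, adjusted p = 0.000351), and 2 of its 5 tested partners were higher in naive. *HPF1*, a cofactor of PARP1, reached a score of 24.3 with the promoter of *AADAT* at 334 kb. Its difference was -0.83 (adjusted p = 0.0827). *GMFG* with *SAMD4B* reached 23.3 and did not pass the filter, and *CCDC69* with *GM2A* reached 22.8 with a difference of -1.33 (adjusted p = 0.00567, but -0.76 and 0.0851 for the highest tile of the fragment). After these came the fragment of *MIR221* and *MIR222* with 21.4.

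Of the 25 naive-only promoters that were higher in primed, the 5 with the largest differences carried no named protein-coding gene. The fragment chr4:55269564-55273651, 72.6 kb from the start of *SRD5A3*, stood at -3.68 and -2.72 in naive and -0.77, -0.11 and -0.78 in primed, a difference of 2.65 (SE 0.37, limma with Benjamini-Hochberg adjustment, adjusted p = 8.87e-05). The fragment chr2:207309867-207311163, 136 kb from the start of *KLF7*, had a difference of 2.37. The others were *ENSG00000234481* with *ENSG00000284720* at 2.18, a fragment 136 kb from *MBD2* at 2.09 and *ENSG00000225632*, within *SSBP3*, at 1.92. At the other end, besides *SLC12A3*, *RNU7-69P* and *NLRC4*, stood a fragment within *UGCG* at -3.47 and *C2orf16* at -3.30.

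At the pluripotency genes *DUSP6* and *OTX2* the promoter did not pass the test and some of the tested partners did. *DUSP6*, on chr12:89347945-89357711, made 35 contacts in primed PSCs, at a median distance of 287 kb. Its promoter stood at -0.45 and -0.60 in naive and 0.22, -0.31 and 0.22 in primed, a difference of 0.57 (SE 0.40, limma with Benjamini-Hochberg adjustment, adjusted p = 0.244). The primed libraries lay above the naive ones, by less than the test required. Of the 13 partners that passed the filter, out of 35, 11 were higher in primed and 0 in naive, with a median of 2.14, and most of the 13 passed through the primed libraries alone. *OTX2*, a homeodomain factor of primed cells and the anterior neural plate, on chr14:56809443-56813351, had 15 contacts, 5 of them over 1 Mb. It stood at 0.53 and 0.42 in naive and 0.80, 0.23 and 0.48 in primed, with overlapping libraries and a difference of 0.03 (SE 0.40, adjusted p = 0.956). Of its 8 tested partners 4 were higher in primed and 0 in naive. All 4 of these lay over 1 Mb away.

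Among the developmental transcription factors, 28 of the 31 primed-only fragments passed the filter, of which 11 were higher in primed and 1 was higher in naive. Over all tested primed-only promoters 18.2% were higher in primed and 17.1% in naive, and over all tested baits 9.85% and 24.8%. Over all tested fragments these shares were 26.3% and 25.1%. *TBX5* stood at -1.78 and -1.62 in naive and 0.28, 0.08 and 0.20 in primed, a difference of 1.89 (SE 0.37, limma with Benjamini-Hochberg adjustment, adjusted p = 0.000932). It had 14 contacts, among them the promoters of *LHX5* at 932 kb and of *TBX3* at 277 kb, and 5 of 8 tested partners were higher in primed, including *LHX5* at 1.41. *HAND2* stood at -1.09 and -1.55 in naive and 0.59, -0.21 and 0.02 in primed, a difference of 1.45 (SE 0.41, adjusted p = 0.00915, and 0.113 without naive replicate 2). Most of its 34 contacts lay in a stretch 593 to 705 kb away, and the highest score there, 62.1 at 684 kb, was the highest of all members. None of its 6 tested partners was higher in primed and 1 was higher in naive. *PTF1A*, a factor of pancreas and cerebellum, stood at -2.15 and -1.77 in naive and 0.06, -0.58 and -0.59 in primed, a difference of 1.59 (SE 0.37, adjusted p = 0.00288, and 0.0610 without naive replicate 1). Of its 12 tested partners 1 was higher in each state. *GATA3*, a factor of trophoblast and T cells, had a difference of 1.46 (adjusted p = 0.00779, and 0.0952 without naive replicate 1).

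Others of the group had contacts without a difference at the promoter. *PITX1*, a hindlimb and pituitary factor, had a difference of 0.30 (SE 0.39, limma with Benjamini-Hochberg adjustment, adjusted p = 0.543) with 14 of 26 contacts over 1 Mb, and *NR2F2*, a nuclear receptor of veins and mesenchyme, had 0.65 (SE 0.39, adjusted p = 0.182) with 10 of 19. In the *HOXB* cluster, *HOXB1*, *HOXB2* and *HOXB3* were primed-only, in a region, chr17:48193939-48557417, where 4 of 8 baits were members and 45 interactions were listed in naive and 172 in primed. *HOXB3* was the promoter of the group that was higher in naive, at 1.08 and 0.82 in naive and -1.04, -0.41 and -0.75 in primed, with a difference of -1.68 (SE 0.40, adjusted p = 0.00344, and 0.0511 without naive replicate 1). *HOXB2* had -0.91 (adjusted p = 0.0506) and *HOXB1* 0.08 (adjusted p = 0.884). Over the 348 partners of the group 179 were tested, and 52 were higher in primed and 13 in naive, with a median of 0.32. The share higher in primed was close to the 26.3% of all tested fragments, of which 25.1% were higher in naive. Over all tested partners of the comparison promoters in the primed list, 18.8% were higher in primed and 26.2% in naive.

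Developmental regulators were also found among the promoters that members contacted. Of the 553 interactions of primed-only promoters with another bait, 60 (10.8%) had a developmental transcription factor on the partner, against 10 of 767 (1.30%) for naive-only promoters and 3.71% and 1.34% for the comparison promoters in the primed and naive lists. These counts cover all primed-only promoters and not developmental regulators alone. Over 1 Mb the share was 35 of 113 (31.0%) for primed-only and 222 of 817 (27.2%) for comparison promoters in primed PSCs. *NKX2-5*, a factor of the early heart, contacted *MSX2* at 1492 kb with a score of 34.0, *TLX3* at 1924 kb and *HAND1* at 18753 kb. *PITX1* contacted *NEUROG1* at 503 kb with a score of 28.6, and both were primed-only. *INSM1*, of neuroendocrine cells, reached 33.2 with *NKX2-2* at 1147 kb, and *CCNO*, of multiciliated cells, reached 32.5 with *ISL1* at 3849 kb. *BAHCC1* reached 32.8 with *CBX8*, a Polycomb subunit, at 1595 kb. H3K4me1 at these promoters differed by 0.33 for *NKX2-5*, 0.35 for *INSM1*, 0.46 for *CCNO* and -0.97 for *BAHCC1*, none past the test in limma with Benjamini-Hochberg adjustment (adjusted p = 0.492, 0.468, 0.352 and 0.0576). Several of the longest contacts rested on few reads, such as 4 combined reads for *NKX2-5* with *HAND1*.

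Of the 8 primed-only signalling genes 7 passed the filter, and 2 were higher in primed, both chosen for mention after their values were seen. Over all tested primed-only promoters 18.2% were higher in primed, over all tested baits 9.85% and over all tested fragments 26.3%. *DLL1*, a Notch ligand, stood at -2.02 and -1.99 in naive and -0.04, -0.28 and -0.42 in primed, a difference of 1.76 (SE 0.35, limma with Benjamini-Hochberg adjustment, adjusted p = 0.00104). *INHBA*, the activin A subunit, had a difference of 1.72 (SE 0.42, adjusted p = 0.0039, but 0.0696 without naive replicate 1 and 0.212 for the highest tile). Of 12 tested partners of the 8 genes 8 were higher in primed and 1 in naive. Over all tested partners of primed-only promoters these shares were 28.6% and 17.7%. Neither naive-only Notch pathway gene passed the test, with -0.49 for *JAG2* (adjusted p = 0.243) and 0.52 for *NOTCH1* (adjusted p = 0.302). Of their 6 tested partners 4 were higher in naive, as were 41.0% of all tested partners of naive-only promoters.

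The largest promoter differences towards primed among primed-only members were at *CER1* and *FLI1*. *CER1* stood at -4.04 and -2.52 in naive and 0.34, -0.00 and 0.63 in primed, a difference of 3.60 (SE 0.44, limma with Benjamini-Hochberg adjustment, adjusted p = 4.03e-05). It had 3 contacts, 2 of them over 1 Mb, and neither of 2 tested partners passed. *FLI1*, an ETS factor of blood and endothelium, was primed-only on 2 adjacent fragments, with differences of 2.94 and 2.87 (SE 0.43 for each, adjusted p = 0.000138 and 0.000148), which share 3 of their 4 partners each. At the fragment chr11:128685126-128686187 the level was -1.45 and -2.25 in naive and 1.45, 0.62 and 1.19 in primed. They were followed by *ENSG00000249695*, within *IQSEC3*, at 2.60 and *SULF1*, a sulfatase of heparan sulfate, at 2.57.

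The opposite direction was as large at other primed-only promoters. *ARHGEF38* stood at 0.99 and 0.78 in naive and -2.86, -2.89 and -2.98 in primed, a difference of -3.79 (SE 0.31, limma with Benjamini-Hochberg adjustment, adjusted p = 1.23e-05), although its 8 contacts were listed in primed PSCs alone. Of its 4 tested partners 3 were higher in naive. *BRDT*, a testis bromodomain protein, stood at 0.68 and 0.12 in naive and -2.89, -2.82 and -3.37 in primed, a difference of -3.43 (SE 0.33, adjusted p = 1.56e-05), with 9 contacts and no tested partner. A fragment within *ZNF536*, chr19:30512053-30512996, had -3.29, *SLC15A4*, a lysosomal peptide transporter, -3.15 and *MAP9-AS1* -2.73.

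The primed-only member with most contacts was the fragment chr5:93885666-93894945 within an intron of *FAM172A*, with 43 contacts, 10 of them over 1 Mb. It stood at -1.57 and -1.93 in naive and -2.91, -2.58 and -3.73 in primed, a difference of -1.32 (SE 0.40, limma with Benjamini-Hochberg adjustment, adjusted p = 0.0144, but 0.103 without naive replicate 1 and 0.0695 without primed replicate 3). Its partners went the other way, with 8 of 10 tested higher in primed. The fragment chr3:190139094-190144951, 16.7 kb from the start of *P3H2*, had 34 contacts at a median distance of 106 kb. It did not pass the filter itself. The 23 partners that passed were higher in primed, with a median of 2.62, but most of them passed through the primed libraries alone, and the other 11 were not tested. *CD83*, a surface protein of dendritic cells, had 32 contacts and *HOOK1*, a dynein adaptor, 29, all of them over 1 Mb. *CD83* had a difference of 0.18 (SE 0.34, adjusted p = 0.679) with 1 of 10 tested partners higher in naive, and 7 of 13 tested partners of *HOOK1* were higher in naive. *MIR2277* with *ENSG00000287180* had 29 contacts, and 5 of 8 tested partners were higher in primed and 1 in naive. Most of the 5 are also partners of the fragment within *FAM172A*. *TICRR*, a replication factor, had 26 and a difference of -0.56 (SE 0.38, adjusted p = 0.239). A fragment within *TET1*, chr10:68686438-68694370, had 25 contacts and did not pass the filter, while the promoter of *TET1* had 2 interactions in naive and 1 in primed and was no member.

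**Figure D5:**
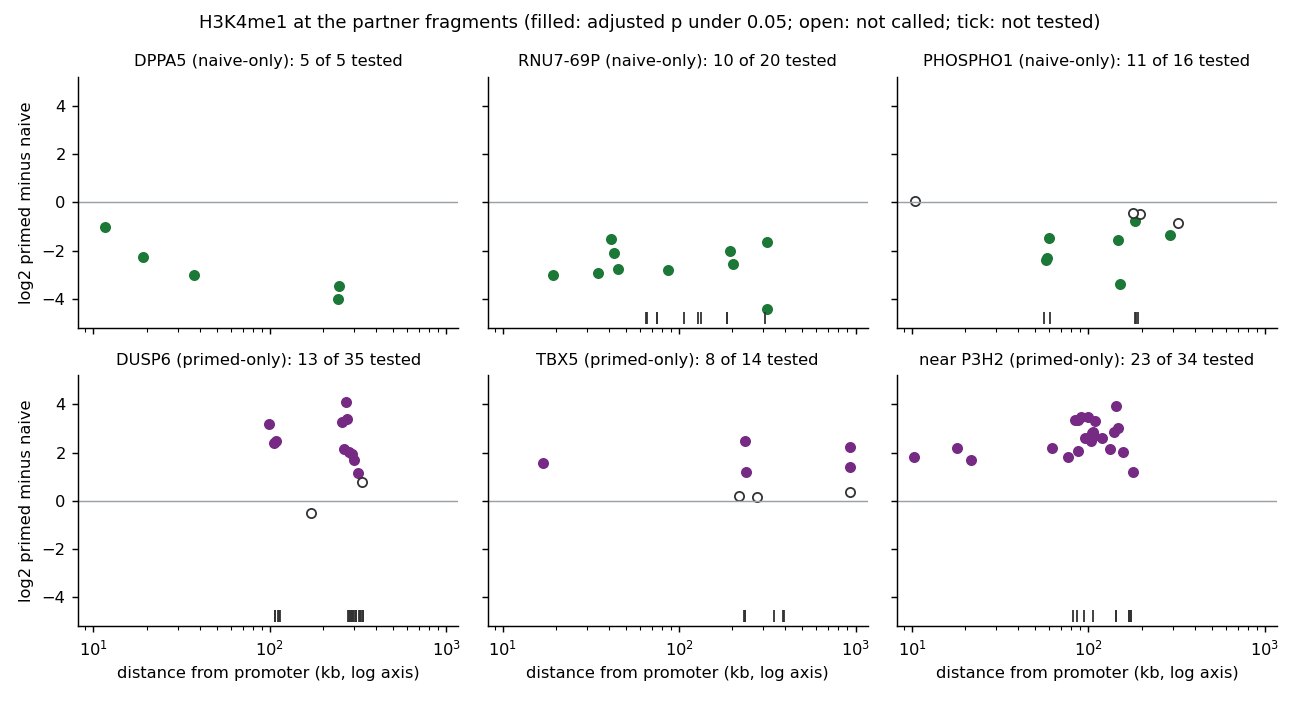
For 3 naive-only (top) and 3 primed-only members (bottom), the H3K4me1 difference of each partner fragment (log2 RPM, primed minus naive) is plotted against its distance from the promoter in kb on a log axis, with filled points for a limma adjusted p under 0.05, open points for tested partners above it and ticks for partners that were not tested. All 5 partners of DPPA5 and all 10 tested partners of RNU7-69P lie below 0, and all 23 tested partners of the fragment near P3H2 lie above it.

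MicroRNA clusters fell into both sets, and their shared seeds are shown because paralogous clusters fell into the same set. The *MIR17HG* cluster on chr13:91345867-91352737 and its paralogue with *MIR106A* and *MIR20B* on chrX:134167387-134177486 were both primed-only, with 3 and 5 contacts. Their miR-17 family members promote cell cycle progression. *MIR221* and *MIR222*, which repress the cell cycle inhibitor p27, share a naive-only fragment, chrX:45740140-45747722, with 12 contacts. Mature sequences are from RefSeq (GRCh38.p14), with the seed, bases 2 to 8, in capitals.
miR-17-5p: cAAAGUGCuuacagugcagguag
miR-20a-5p: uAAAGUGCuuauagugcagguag
miR-106a-5p: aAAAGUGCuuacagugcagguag
miR-20b-5p: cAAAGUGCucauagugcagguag
miR-221-3p: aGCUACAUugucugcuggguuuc
miR-222-3p: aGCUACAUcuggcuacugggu
The first 4 share the seed AAAGUGC and the last pair shares GCUACAU. The *MIR17HG* promoter fragment stood at -1.57 and -1.59 in naive and -1.54, -1.71 and -1.39 in primed, with overlapping libraries and a difference of 0.03 (SE 0.30, limma with Benjamini-Hochberg adjustment, adjusted p = 0.936). The *MIR106A* fragment had a difference of -0.17 (SE 0.44, adjusted p = 0.774), and the *MIR221* fragment did not pass the filter. *MIR146A*, a regulator of innate immune signalling with 4 contacts all over 1 Mb, was primed-only with a difference of 2.57 (SE 0.37, adjusted p = 0.000124).

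The ribosomal protein genes of the naive-only set were *RPS29* on 2 fragments, *RPL10*, *RPL37*, *RPL3L*, *RPLP2*, *RPS2* and *RPS7*. All 8 fragments passed the filter, 3 were higher in naive and 1 higher in primed. Over all tested naive-only promoters 38.1% were higher in naive and 5.57% in primed, and over all tested baits 24.8% and 9.85%. The fragment of *RPS29* with *LRR1*, chr14:49594983-49599399, stood at 0.00 and -0.30 in naive and -1.57, -1.59 and -2.01 in primed, a difference of -1.57 (SE 0.35, limma with Benjamini-Hochberg adjustment, adjusted p = 0.00204), while the other *RPS29* fragment had -0.03 (adjusted p = 0.944). The calls of *RPL10* (-0.95, adjusted p = 0.0333), *RPL3L* (-0.97, adjusted p = 0.0293) and *RPS2* (1.06, adjusted p = 0.0233) were lost when naive replicate 1 was left out (adjusted p = 0.146, 0.0960 and 0.208), and also without naive replicate 2 (0.0701, 0.0920 and 0.0533), and those of *RPL10* and *RPL3L* without primed replicate 1 (0.0761 and 0.0946) or primed replicate 3 (0.144 and 0.101). For the highest tile of the fragment the adjusted p of the 3 genes was 0.678, 0.138 and 0.399. Of 19 tested partners of the 8 fragments 12 were higher in naive and 0 in primed. Of the 3 naive-only histone fragments 2 were higher in naive, and the call of *H1-8* (-1.03, adjusted p = 0.0486) had an adjusted p of 0.130 without naive replicate 1, 0.211 without naive replicate 2 and 0.229 without primed replicate 3. Zinc finger genes had no tested partner higher in primed in either set, with 12 of 26 higher in naive for naive-only and 5 of 13 for primed-only members. Over all tested partners, 41.0% were higher in naive and 7.56% in primed for naive-only promoters. For primed-only promoters these shares were 17.7% and 28.6%, and over all tested fragments 25.1% and 26.3%.

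Chromosome X held a larger share of naive-only promoters than any autosome. Of its 582 baits 64 (11.0%) were naive-only, against 2.82% to 6.30% per autosome, and 23 (3.95%) were primed-only. In the Hi-C libraries, chromosome X made up 4.46% of the ends of contacts between chromosomes in naive and 3.65% in primed PSCs, and its part in the naive-only count was not tested. Of 45 tested naive-only promoters on chromosome X 26 (57.8%) were higher in naive and 1 in primed, with a median of -1.16, beside 49.4% and 3.33% of the 330 tested baits of the chromosome. On the autosomes 145 of 404 tested naive-only promoters (35.9%) were higher in naive and 24 in primed, with a median of -0.61, so the lean was present without chromosome X. The largest primed-only group also lay there, with 8 of the 14 baits of chrX:129511088-130319106, which include *OCRL*, *APLN*, *SASH3*, *ELF4*, *AIFM1* and *RAB33A*, and with 8 interactions listed in naive and 139 in primed. Groups in which every bait with a listed interaction was primed-only lay around *PTPRK* on chromosome 6, with 0 interactions in naive and 17 in primed, and *OXR1* on chromosome 8, with 0 and 25.

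The rule itself lowers the chance that a partner is listed in the other state. A member has no listed interaction there, whereas a comparison promoter can list its partner again. Of 2999 partners of naive-only promoters 1093 (36.4%) appeared in any interaction of the primed list, against 69.1% for the comparison promoters, and of 3390 partners of primed-only promoters 1175 (34.7%) appeared in the naive list, against 63.0%. A part of each set lay next to a bait that had contacts in the other state, since such a bait was within 10 kb of 56 naive-only (8.62%) and 45 primed-only promoters (7.91%). *EIF4B*, a translation initiation factor, and *ATP10B*, a phospholipid flippase, each had a fragment in both sets, and those of *EIF4B* are adjacent. Members contacted each other in 57 naive-only pairs with 93 members and in 33 primed-only pairs with 58.

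Hi-C gave a value for short contacts that did not pass through capture. The authors made PCHi-C from Hi-C library DNA, so the libraries may share material and Hi-C is no independent check. The contacts were also chosen by the PCHi-C lists, which favours a lean in the same direction. For pairs of 100 kb bins 1 or 2 bins apart, the log2 ratio of primed to naive di-tags, relative to the median of all pairs at that distance, was -0.19 at the median over 692 pairs that hold a naive-only contact, and 75.9% of the pairs lay below 0. It was 0.10 over 302 pairs with a primed-only contact, with 33.8% below 0, and -0.04 over 5779 pairs with a contact of the comparison promoters. When the ratio was also divided by the coverage of both bins, the medians were -0.10, 0.10 and -0.08, so the naive-only value came close to that of the comparison promoters. With 1 library per state no test was possible.

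In sequence the sets were alike in most features. The median ratio of observed to expected CpG was 0.798 in 533 promoter windows on 348 naive-only fragments and 0.803 in 427 windows on 298 primed-only fragments, against 0.780 for the comparison promoters and 0.580 for all RefSeq windows. The AP-2 motif was found in 32.8% of naive-only and 24.6% of primed-only windows (27.9% of comparison windows), and the GC box in 340 of 533 and 239 of 427 windows (60.0%). The TATA box was found in 6.94% and 10.8% (9.23%), the CCAAT box in 32.3% and 38.2% (35.0%) and the SOX motif in 2.44% and 4.45% (4.32%). The octamer bound by OCT4 was in 1.13% and 1.64% (1.74%). The E-box was found in 8.63% and 10.3% (8.47%), the GATA motif in 4.13% and 5.62% (4.93%), the NRF1 motif in 1.13% and 1.17% (1.57%) and the YY1 motif in 3.19% and 2.34% (2.18%). Unbaited partners had a median of 9.56 CpG per kb in the naive-only and 7.51 in the primed-only set, against 6.89 over all HindIII fragments. Several windows can lie on 1 fragment, so these shares are descriptions and were not tested.

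Of the genes that had been looked up by name, *TBX3*, *LHX5*, *IL6*, *GDF3*, *REST*, *KLF7*, *TCF4*, *ZIC2*, *YPEL2*, *EN2*, *SHH* and *MNX1* had contacts in both states and were no members. *EN2* came close, with 1 interaction in naive and 46 in primed, as did *MNX1* with 2 and 40. Gene expression was not measured in these data. Among the baited promoters of marker genes, H3K4me1 was higher in naive at *DPPA5*, *DPPA3*, *FGF4* and *SUSD2* and higher in primed at *CYTL1*, *HMX2* and *FAT3*, while not every marker followed its state.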

How the data were processed

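The authors mapped PCHi-C reads with HiCUP, combined 2 libraries per state and deposited CHiCAGO interactions that score 5 or more, with the score and a scaled, combined read number that is not a raw count. Hi-C was deposited by the authors as di-tag counts per pair of 100 kb bins. H3K4me1 was deposited as log2 RPM per 500 bp tile, for which the submitters' notes name Trim Galore 0.5.0 and Bowtie2 2.3.2. All coordinates are GRCh38. Empty tiles hold 0.9 reads in the deposited log2 values, and 100% of the other tiles were whole reads. Reads across a tile border enter each tile they touch.

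From these, interactions per bait were counted in each list, and promoters were taken from GENCODE as the start plus 1000 bp upstream. H3K4me1 was averaged over the tiles of each HindIII fragment, kept where its highest tile was above 0 log2 RPM in at least 2 libraries (160192 of 852873 fragments), and fitted with limma 3.58.1 (trend, R 4.3.3) without covariates. edgeR 4.0.16 on the recovered whole reads was an alternative, and both fits were tested on simulated data, where limma made no call when few fragments were changed and recovered most of the larger changes when a large share was. Hi-C bin pairs were compared with 1 library per state. Python 3.11.15, pandas 2.3.3 and numpy 2.4.6 were used. The study's methods describe the replicates as biological, all from 1 cell line, and p-values measure the spread between these libraries.

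The members, the gene lists and the tests were chosen with earlier results of these data known. Named members were, per set, the 10 with most interactions, the 5 with the highest score, the 5 with the largest called H3K4me1 difference towards each state, of those whose libraries did not overlap, up to 5 of each gene list by interactions, and genes that the study names for contacts. Members of the described loci, the ribosomal, histone and signalling genes, *HOXB3*, *EIF4B*, *ATP10B* and the miRNA clusters were added after their values were seen. Some results are not reported here. Depth limits the precision of all levels, and counts of interactions carry no replicate error.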

Additional observations from a re-analysis of the deposited data

How the results depend on the processing

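Of the recomputed values that answer a comparison, 186 stayed within the spread or within 1.5 times the count and 42 moved by more. The median of primed-only promoters, 0.03 in the report, changed sign to -0.05 without primed replicate 1. With at least 2 interactions, at least 5, or a score of at least 7, the naive-only promoters numbered 1161, 244 and 100 and the primed-only promoters 934, 281 and 137. The naive-only median distance was 162 kb with a score of at least 7 and 168 kb with at least 10 reads, which left 0.409% over 1 Mb. For primed-only promoters it was 503 kb with at least 5 interactions, 583 kb with a score of at least 7, 444.8 kb with at least 10 reads and 516 kb without a bait listed in the other state within 10 kb. The share over 1 Mb was 22.4%, 29.1%, 16.7% and 22.7% in these settings and 22.5% with equal numbers of top interactions.

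Among members with 5 or more interactions, 79 naive-only promoters were higher in naive and 7 in primed (median -0.76), 30 and 35 primed-only promoters, and 363 and 54 partners of naive-only promoters (median -0.84). Without the filter the naive-only medians were -0.41 for promoters and -0.41 for partners, and for the highest tile -0.50 and -0.50. Same-numbered libraries shared only a number (correlations of deviations 0.0871 and 0.104). With the replicate block 15 naive-only promoters were higher in primed, and 32 and 44 primed-only promoters were higher in naive and in primed.

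When 1 library was left out, a state left with 1 naive library was assumed to vary like the other. Naive-only promoters higher in naive ranged from 131 to 186, higher in primed from 9 to 27, with a median of -0.68 to -0.58. Primed-only promoters ranged from 37 to 64 and from 24 to 78, with a median of -0.05 to 0.11. Partners of naive-only promoters ranged from 403 to 589 and from 56 to 120 (median -0.74 to -0.64), and those of primed-only promoters from 137 to 219 and from 198 to 350 (median 0.12 to 0.29). The cause was not tested.

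The Hi-C median was -0.10 for naive-only contacts after division by coverage and 0.0523 for primed-only contacts 1 bin apart. With 1 window per fragment, 66.1% of primed-only windows had a CpG ratio of at least 0.6. Of 75 named members tested 50 were called, and 32 of them under all 12 alternatives. The analysis of autosomes alone was added after seeing the data. Contacts rest on 1 combined list per state, so their differences have no replicate check.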
